A study of Mus musculus with 4 samples.

Results

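The comparison described here is GOLPH2 knockout (KO) against wild type (WT) in dendritic cells that received no stimulus. Its members are all 15394 genes in the table that the authors deposited for this pair of libraries, out of 15881 genes listed for either of the 2 states of the series. Both libraries came from bone marrow-derived dendritic cells of C57BL/6 mice aged 8 weeks, 1 library from GOLPH2-/- and 1 from wild-type animals, neither given IFN-gamma or LPS. The other pair of libraries, from cells of the same 2 genotypes primed with IFN-gamma for 16 h and exposed to LPS for 4 h, is set beside it where it bears on a gene. The labels name no replicate cultures or animals, do not say how the deletion was made or which part of the gene it removes, and do not say how many mice gave cells.

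GOLPH2, the product of Golm1, sits in Golgi membranes and cycles through the cell's secretory route. Dendritic cells sense microbes through Toll-like receptors, which act through NF-kB to switch on cytokines such as IL-12, the signal that steers T cells towards a type 1 response. Cultures grown from bone marrow also contain cells that resemble macrophages, which take up iron, lipids and debris and defend themselves against oxidants through the transcription factor NRF2.

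The deposited values per gene, a log2 ratio and a p-value, were found to fix the reads of a gene in each library, and reads are therefore given below for KO and WT. The KO library was 1.14 times as deep, with at least 37.2 M reads against 32.4 M (M for mega) over the listed genes, so equal expression means 1.14 KO reads for each WT read. The deposited ratios do not remove this difference, and all of them lie 0.19 above those given here. Ratios are log2 of KO over WT with this depth difference removed, and ± is the counting standard error from the reads of both libraries. It covers the sampling of reads and not the spread between cultures. A gene is "called" where its deposited p-value, after Benjamini-Hochberg adjustment over the whole table, was below 0.001. Such a call compares 2 libraries and not 2 conditions, and no difference has a replicate check.

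Of the 15394 genes, 1380 (8.96%) were called, 723 higher in the KO library (4.7%) and 657 lower (4.27%). With ratios read as deposited, the same calls would split into 1010 above 0 and 369 below, with 1 at 0, so the sign of the small differences depends on the zero point. Most called differences were small. A size of 1.5-fold or more was reached by 109 called genes (0.708%), 63 above (0.409%) and 46 below (0.299%) the WT level, and 2-fold by 14 (0.0909%) and 13 (0.0844%). The share called followed the number of reads, from 0.289% of genes with a mean under 50 reads to 44.5% of genes with a mean over 5000, so a call at high expression can be a difference of a few percent. Of the 11223 genes measured with the precision of 50 reads in each library, 6.38% were called higher and 5.8% lower, 0.499% and 0.356% at 1.5-fold or more, and 0.0624% in each direction at 2-fold or more. In the stimulated pair 5.36% of 15310 genes were called higher and 6.54% lower, and 1.02% passed 1.5-fold, 0.425% upwards and 0.594% downwards. The authors' deposited table marks 161 genes as differentially expressed, 139 with a positive and 22 with a negative deposited ratio, and 85 of the 161 passed 1.5-fold once the depth difference was removed.

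**Figure D1:**
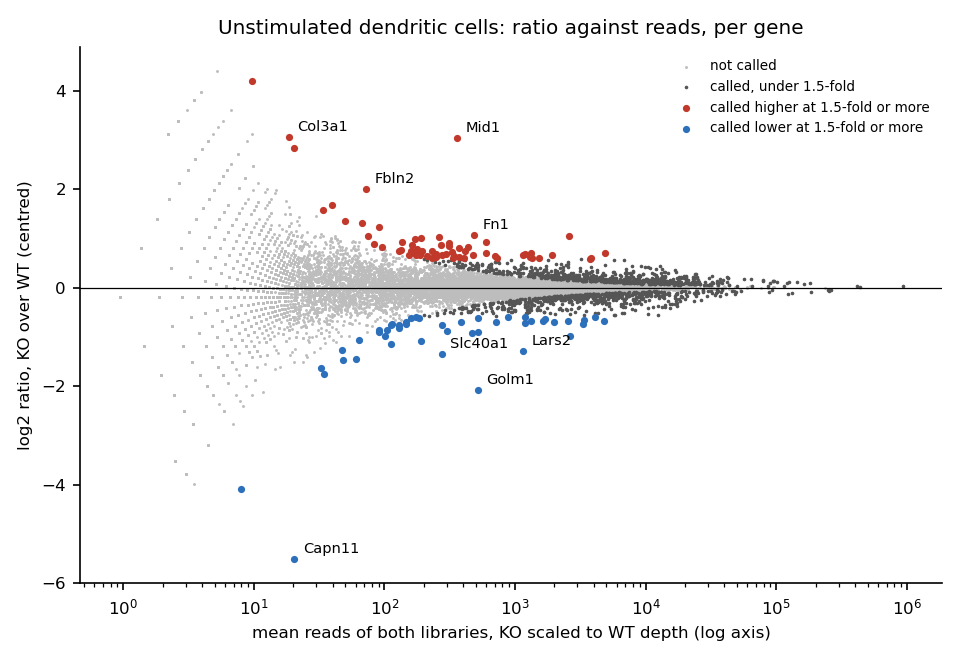
Each point is 1 gene of the unstimulated pair, with the mean reads of both libraries on a log axis and the centred log2 ratio of KO over WT on the y axis. Red points are the 63 genes and blue points the 46 genes past 1.5-fold, and called genes under 1.5-fold lie mainly at high read numbers.

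Golm1 itself (chromosome 13, 59634996 to 59675784, GRCm38.p6) had at least 226 reads in the KO and 842 in the WT library. Its log2 ratio was −2.09 ± 0.11, or 23.5% of the WT level. In the stimulated pair the gene had 190 and 779 reads and a ratio of −2.0 ± 0.12. Reads from Golm1 thus remained in both libraries labelled KO, and the sources used here do not say whether they come from the part that was removed. Genes around it did not share its ratio. Its neighbours Agtpbp1 (−0.01 ± 0.06), Naa35 (0.01 ± 0.06) and Isca1 (−0.01 ± 0.04) were not called. Among 80 listed genes within 5 Mb to either side, 4 (5%) were called higher and none lower, and none at 1.5-fold. The named ones were the matrix protein gene Tgfbi (0.24 ± 0.01), the lysosomal protease gene Ctsl (0.41 ± 0.02) and the kinase gene Cdk20 (0.46 ± 0.09).

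Other genes of the Golgi apparatus showed small differences. Over all genes 4.7% were called higher and 4.27% lower. Among genes with a mean of 500 to 5000 reads 9.84% were called in either direction. Of 46 listed Golgi membrane and tether proteins, 6 were called lower and none higher (2 and 4 with ratios as deposited), with a list median of −0.05 against 0.00 for all genes. Besides Golm1 these were Tmem165, a Golgi ion transporter (2794 reads in KO and 2836 in WT, −0.21 ± 0.04), Golph3 (−0.18 ± 0.03) and its relative Golph3l (−0.16 ± 0.03), Acbd3 and Golga4, the last not called by an exact binomial test on the reads. The names GOLPH2 and GOLPH3 share a numbering and not a gene family. The Golgi stacking protein genes Gorasp1 (0.09 ± 0.06) and Gorasp2 (−0.01 ± 0.03) were not called. Of 110 enzymes that build or sulfate sugar chains, 10 were called higher and 5 lower, with a median of 0.02. The carbohydrate sulfotransferase gene Chst7 had 341 and 195 reads (0.62 ± 0.13), and Chst3 (0.56 ± 0.11) and the sialyltransferase gene St3gal4 (0.49 ± 0.08) were also called higher. The O-glycan enzyme genes Galnt10 and C1galt1 (both −0.42, ± 0.07 and ± 0.10) were called lower. Coat and adaptor proteins of vesicles had 3 of 64 members called higher and 4 lower. Rab GTPases, the switches of vesicle traffic, had 4 of 56 called in each direction, led by Rab15 (0.65 ± 0.14) and Rab32 (−0.46 ± 0.05).

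The genes with the largest ratios rested on few reads. At 1.5-fold or more, 104 of the called genes have a gene name, 60 higher and 44 lower, and 37 and 26 of them had under 500 reads in both libraries. Col8a1, a short-chain collagen, had 21 reads in KO and 1 in WT, a ratio of 4.20 with an exact 95% counting interval of 1.56 to 9.57. Capn11, a calpain protease, had 1 and 40 reads, at −5.51 (−10.9 to −2.95), and in the stimulated pair 0 and 25. Nxpe4 had 1 and 15 reads, at −4.10 (−9.49 to −1.40), and its call was lost with an exact binomial test on the reads. All 3 intervals lie beyond 1.5-fold, but they span many sizes. The 2-fold genes with over 500 reads in a library were Mid1 (at least 730 and 78 reads), Erdr1 (at least 3950 and 1683) and Fn1 (752 and 313) on the higher side, and Golm1 and Lars2 (at least 763 and 1643) on the lower side. Further 2-fold genes on the lower side included Glis3, a zinc finger transcription factor (139 and 257 reads, −1.08 ± 0.15), and Bmp2, a secreted growth factor (18 and 49, −1.64 ± 0.40).

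**Figure D2:**
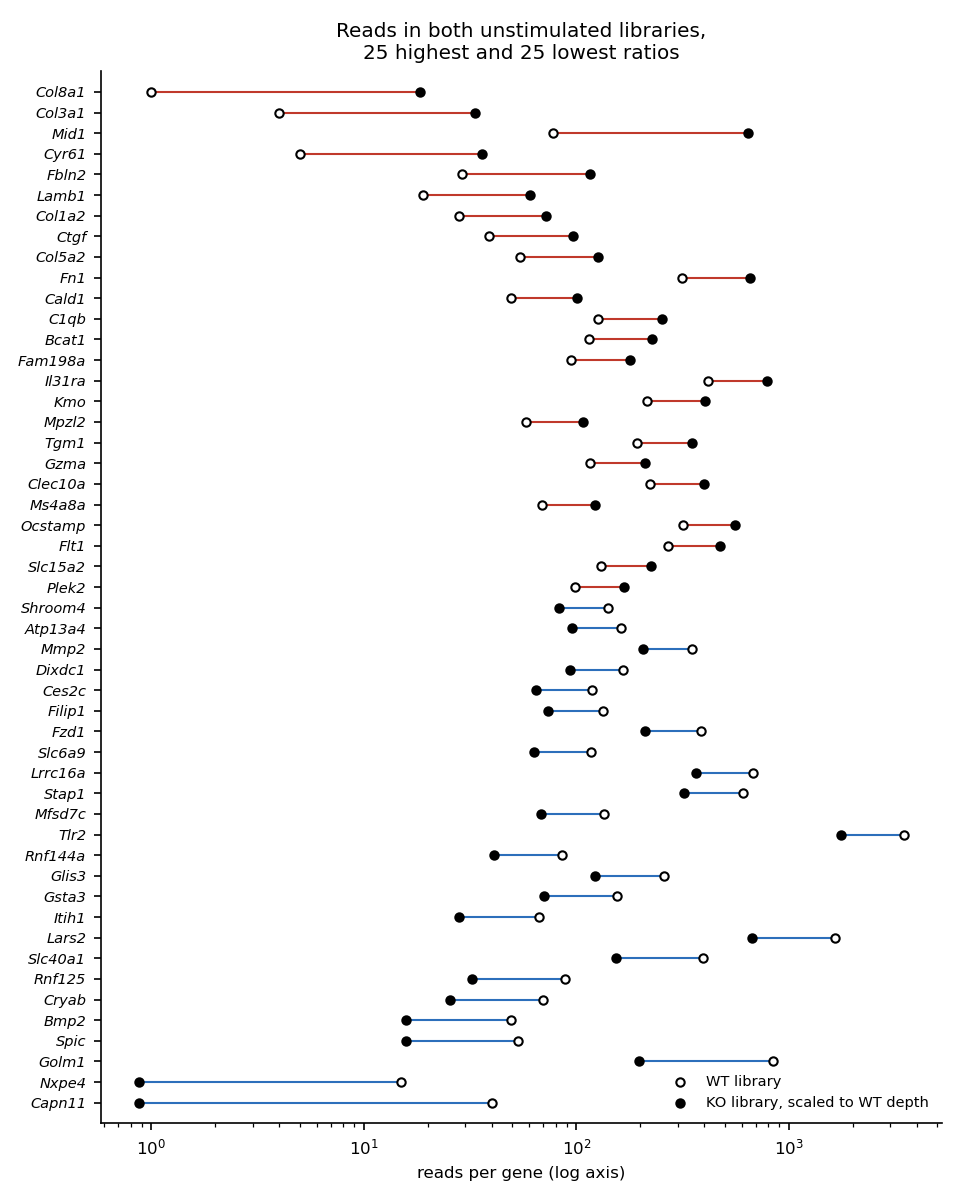
Reads of the protein-coding genes with the 25 highest and 25 lowest ratios among those called at 1.5-fold or more, on a log axis; open circles are the WT library and filled circles the KO library scaled to the WT depth. Col8a1, Capn11 and Nxpe4 have 1 read in a library, while Fn1, Tlr2 and Lars2 have at least 313 reads in both libraries.

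Mid1, which encodes a microtubule-bound ubiquitin ligase of the TRIM family, lies at the distal end of chromosome X (169685199 to 169990798), across the boundary of the region that pairs with the Y chromosome. Its ratio was 3.04 ± 0.17, against 2.31 in the stimulated pair. The 2 listed genes next to it towards the chromosome end were chosen for naming after their values were seen, and both were called higher as well. G530011O06Rik, a non-coding gene that overlaps the span of Mid1, had 402 and 172 reads (1.03 ± 0.13). Erdr1, which lies 19.7 kb past Mid1, had a ratio of 1.04 ± 0.04. The closest listed gene on the other side, Hccs, had 682 and 709 reads (−0.25 ± 0.08) and was not called. All 3 were called higher in the stimulated pair too, at 2.31, 0.85 and 1.35. Where gene spans overlap, reads counted for one gene can come from the other. Xist, the transcript of the silenced X chromosome, had 19801 and 16679 reads (0.06 ± 0.02) and was not called.

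Some of the highest ratios belonged to a few collagen and matrix genes, most of them with few reads, while most members of these families were not called. Of 32 collagen chain genes, 4 were called higher and 1 lower, and of 46 matrix glycoproteins and proteoglycans, 10 were called higher and 1 lower. The shares over all genes were 4.7% higher and 4.27% lower. Col3a1 had 38 reads in KO and 4 in WT (3.06 ± 0.76). Col1a2 had 82 and 28 reads (1.36 ± 0.32), and Col5a2 had 145 and 54 (1.23 ± 0.23). Col1a1, the partner chain of Col1a2 in type I collagen, had 86 and 49 reads (0.62 ± 0.26) and was not called. Col27a1, the collagen gene with far more reads than these (1589 and 1950), was called lower at −0.49 ± 0.05. The collagen list median was 0.20, but −0.14 over the 12 chains measured with the precision of 50 reads per library.

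Among the glycoproteins, fibulin 2 (Fbln2) had 133 and 29 reads (2.01 ± 0.30), the laminin chain gene Lamb1 69 and 19 (1.67 ± 0.37) and fibronectin (Fn1) 752 and 313 (1.07 ± 0.10). Latent TGF-beta binding protein 2 (Ltbp2, 0.75 ± 0.16), biglycan (Bgn, 0.75 ± 0.18) and the laminin chain gene Lama5 (0.74 ± 0.10) were also called higher at over 1.5-fold. Thrombospondin 1 (Thbs1), with at least 15070 and 17601 reads, was the 1 member called lower (−0.42 ± 0.02). The list median was 0.25. Contractile and actin-binding genes had 11 of 29 called higher and 1 lower, against 4.7% and 4.27% over all genes. Of 1376 genes with a mean over 5000 reads, 349 were called higher and 263 lower. Only 2 of the 11 passed 1.5-fold. The caldesmon gene Cald1 had 115 and 49 reads (1.04 ± 0.25) and the calponin gene Cnn3 had 1782 and 1019 (0.62 ± 0.06). Enzymes that process collagen did not follow, with none of 23 called higher and 2 lower, among them P4ha1 (−0.21 ± 0.02). Among matrix-degrading proteases of the MMP and ADAM families, 3 of 54 were called higher and 6 lower. Mmp2, a gelatinase, had 234 and 349 reads (−0.77 ± 0.12), and Mmp10 had 159 and 212 (−0.61 ± 0.15).

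The secreted CCN proteins Cyr61 (41 and 5 reads, 2.84 ± 0.68) and Ctgf (110 and 39 reads, 1.30 ± 0.27) were called higher, out of 5 listed. Both are known targets of the YAP and TEAD transcription factors. The 250 bases before the start of Cyr61 are shown for that reason (chr3:145649986-145650235, minus strand, GRCm38.p6, RefSeq, 5′ to 3′), with the TEAD letters GGAATG, here on the other strand, in capitals.
Cyr61: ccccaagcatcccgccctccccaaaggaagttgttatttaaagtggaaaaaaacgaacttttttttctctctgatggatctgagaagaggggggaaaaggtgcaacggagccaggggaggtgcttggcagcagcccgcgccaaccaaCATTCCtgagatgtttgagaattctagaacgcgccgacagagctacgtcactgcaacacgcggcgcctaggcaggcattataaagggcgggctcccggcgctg
The match starts at position −103, counted from −1 at the last base before the start. On either strand these letters occurred in 7 of the 23 genes (30.4%) with a RefSeq promoter among the 27 called higher in the collagen, glycoprotein, CCN and contractile lists, among them Col3a1, Cald1 and Flna. They occurred in 12.7% of the 11981 genes of the table with such a promoter. Some other motifs searched were also more frequent in the 23 than over all genes. They were the ISRE core, which is GAAA, any 2 bases and GAAA (17.4% against 3.36%), the AP-1 letters TGANTCA (17.4% against 6.11%) and the CArG box (8.70% against 1.39%). The remaining motifs searched, the NF-kB site (4.35% against 10.6%) and the letters TGACNNNGC (4.35% against 13.9%), were less frequent. A match of letters is not a bound site. Members of these lists not called higher were not searched as a set, so the shares do not bear on the calls. For genes with several starts a match in any of them was counted.

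The list of fibroblast markers overlaps with the matrix genes above. It shares Col3a1, Col1a2, Col1a1 and Fn1 with them, so their calls are not a separate observation. All 11 fibroblast markers listed were in the table, 4 called higher (Col3a1, Col1a2, Fn1 and Thy1) and none lower, and their summed level was 119 reads per M in KO and 83.9 in WT. Thy1, which other cells also express, gave 2886 of the 4394 KO reads and 1913 of the 2720 WT reads. The other 7 markers were not called. Of these Sparc, a collagen-binding protein gene, had 93 and 45 reads (0.86 ± 0.26) and Col1a1 the ratio given above, and under stimulation both were called higher, at 1.99 and 3.51. Pdgfra had 41 and 25 reads, Postn 19 and 14, Dcn 287 and 219, Pdgfrb 103 and 103 and Lum 7 and 7. Of 6 smooth muscle and pericyte markers, 3 were in the table and none was called, with Acta2 at 50 and 59 reads. The part of these markers in the matrix result was not tested, and in bulk RNA fewer cells of a type and less RNA per cell cannot be told apart.

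The labelled cell type was checked against its markers. Of 12 dendritic cell markers 11 were in the table, 6 called higher and none lower. Their summed level was 6212 reads per M in KO and 5855 in WT. Most reads in these sums came from Cd74 (an estimated 133208 and 113640, ratio 0.04 ± 0.01) and H2-Ab1 (an estimated 41256 and 33930, ratio 0.09 ± 0.01). Itgax (CD11c) had at least 21571 and 15101 reads (0.32 ± 0.02), Clec10a 453 and 222 (0.84 ± 0.12), Batf3 3404 and 2087 (0.51 ± 0.04) and Zbtb46 788 and 695 (not called). Macrophage markers were also abundant, with 8 of 12 called higher and 2 lower and sums of 4991 and 4733 reads per M. The 2 lower were Csf1r (19002 and 20030 reads, −0.27 ± 0.01) and Cd14 (at least 6365 and 7964, −0.51 ± 0.02). Lyz2 had at least 94568 and 74657 reads and the F4/80 gene, listed as Emr1, 41850 and 33481. Lyz2 and Emr1 gave most of the reads in these sums. The table held 11 neutrophil markers, of which Mmp8 and Lcn2 were called lower and none higher, with sums of 313 and 386 reads per M. Its members differed widely in reads, from Lcn2 (6503 and 7351) and Mmp8 (3274 and 3406), which other myeloid cells also express, through the calprotectin gene S100a8 (145 and 191, not called) to its partner S100a9 (3 and 1) and Mpo (6 and 6). B cell markers were low, with sums of 5.81 and 3.43 reads per M and 0 of 6 called, and T and NK cell markers reached 95.7 and 71.8, of which Thy1 gave most. In that list Gzma, a granzyme gene, had 241 and 116 reads (0.86 ± 0.16) while Cd3e had 15 and 10. Bulk libraries cannot say which cells of the culture carry a given transcript.

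Co-receptors and adaptors of Toll-like receptors and the NF-kB pathway were among the groups with more calls downwards, while the receptors themselves split. Over all genes 4.7% were called higher and 4.27% lower. The share called rose with reads: of 1376 genes with a mean over 5000 reads, 349 were called higher and 263 lower. Of 12 Toll-like receptor genes, 2 were called higher and 2 lower, with a list median of 0.04. Tlr2, which recognises bacterial lipoproteins, had at least 1999 reads in KO and 3470 in WT (−0.99 ± 0.04). Its partner Tlr1 had 657 and 713 (−0.31 ± 0.08). Tlr8, a sensor of RNA, was called higher (843 and 535 reads, 0.46 ± 0.08), as was Tlr4 by a smaller amount (0.08 ± 0.02). Of 24 co-receptors, adaptors and kinases that act with these receptors, 6 were called lower and none higher. They included the LPS co-receptor Cd14 (at least 6365 and 7964 reads, −0.51 ± 0.02), the adaptor gene Ticam2 (−0.48 ± 0.06) and Irak3, an inhibitor in this pathway (−0.52 ± 0.05). The shared adaptor Myd88 (0.05 ± 0.05) and Traf6 (0.01 ± 0.03) were not called. Among NF-kB subunits and inhibitors 8 of 22 were called lower and 1 higher (2 and 7 with ratios as deposited), and the median was −0.07. The deubiquitinase gene Tnfaip3 and the nuclear cofactor gene Nfkbiz, both induced by NF-kB itself, were each at −0.33 (± 0.02 and ± 0.04), and the subunit gene Nfkb1 was higher (0.21 ± 0.01).

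Cytokines differed by family, beside 4.7% called higher and 4.27% lower over all genes. Both chains of IL-12 were called lower, Il12b with 2246 and 3155 reads (−0.68 ± 0.04) and Il12a with 473 and 634 (−0.61 ± 0.09). The IL-1 family had 5 of 16 genes called, all downwards, and its median was −0.13. Il1b had at least 10171 and 11871 reads (−0.41 ± 0.02) and Il1a at least 17722 and 19363 (−0.32 ± 0.01). Il6 had 5275 and 6798 reads (−0.56 ± 0.03) and Csf1 3120 and 4012 (−0.55 ± 0.03). Tnf (1978 and 1915 reads, −0.14 ± 0.05) was not called. Of 28 chemokines, 8 were called higher and 5 lower. The neutrophil attractants Cxcl1 (at least 4240 and 5903 reads, −0.67 ± 0.03) and Cxcl2 (at least 11419 and 14713, −0.56 ± 0.02) were lower. Ccl4 (4398 and 2576, 0.58 ± 0.04), Ccl17 (at least 13492 and 8861, 0.42 ± 0.02) and Ccl7 (3992 and 2753, 0.34 ± 0.04) were higher. In the stimulated pair the ratios of Cxcl1 and Cxcl2 were nearer 0, at −0.18 and −0.12, as was that of Il12a (−0.18, not called), while that of Il12b was −0.83.

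The promoters of Tlr2 and Cxcl1 are shown because both genes were called lower at over 1.5-fold and hold a match to the NF-kB site, in capitals (chr3:83841609-83841858, minus strand, and chr5:90890995-90891244, plus strand; GRCm38.p6, RefSeq, 250 bases before the start, 5′ to 3′).
Tlr2: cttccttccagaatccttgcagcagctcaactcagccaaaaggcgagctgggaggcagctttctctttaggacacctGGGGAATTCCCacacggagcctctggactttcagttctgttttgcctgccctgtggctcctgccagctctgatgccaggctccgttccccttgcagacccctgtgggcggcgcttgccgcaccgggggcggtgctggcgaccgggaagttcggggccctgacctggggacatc
Cxcl1: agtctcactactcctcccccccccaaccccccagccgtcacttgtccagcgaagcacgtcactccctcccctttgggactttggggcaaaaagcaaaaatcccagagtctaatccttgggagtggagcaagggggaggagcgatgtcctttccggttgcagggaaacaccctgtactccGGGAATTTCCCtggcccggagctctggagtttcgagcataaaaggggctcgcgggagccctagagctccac
Each stretch of capitals is a pair of overlapping matches, the first starting at position −173 in Tlr2 and at −71 in Cxcl1. The start used for Tlr2 lies inside the span listed for the gene (83836272 to 83841824), and so does the marked match. Of the 41 genes called lower in the lists of these receptors, adaptors, NF-kB factors, cytokines, chemokines, chemokine receptors and other inflammatory mediators, 34 had a promoter, and 14 of these (41.2%) held such a match on either strand. Cxcl2, Cxcl3, Il6, Tnfaip3 and Nfkb2 were among them. Over all genes the share was 10.6%. The AP-1 letters occurred in 20.6% of the 34 against 6.11%, and the TEAD letters in 20.6% against 12.7%. Genes of these lists were chosen for their known biology, and NF-kB targets are among them whatever their ratio. Those not called lower were not searched as a set, so the shares do not bear on the calls.

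NRF2 targets and glutathione enzymes, which detoxify oxidants and reactive compounds, held more genes called lower than any other of the 84 lists. They were 21 of 57, with 3 called higher, and the list median was −0.16 against 0.00 for all genes. Over all genes 4.27% were called lower and 4.7% higher, and of 1376 genes with a mean over 5000 reads 263 and 349. The number called in a list also depends on its size and its reads. Gsta3, a glutathione transferase, had 80 reads in KO and 155 in WT (−1.15 ± 0.20). Nqo1, a quinone reductase, had 1160 and 1630 (−0.68 ± 0.06), and the peroxiredoxin gene Prdx1 at least 5389 and 6936 (−0.56 ± 0.03). The gene of NRF2 itself, Nfe2l2, had 4038 and 5049 reads (−0.51 ± 0.03), while that of its inhibitor, Keap1, had 2511 and 2146 (0.04 ± 0.04) and was not called. Both subunits of the enzyme that starts glutathione synthesis were lower, Gclc with 2385 and 2877 reads (−0.46 ± 0.04) and Gclm with 3040 and 3493 (−0.39 ± 0.04). Hmox1, which breaks down heme, had at least 11126 and 12833 reads (−0.40 ± 0.02). Glutathione reductase (Gsr, −0.30 ± 0.03), thioredoxin reductase (Txnrd1, −0.27 ± 0.02), the cystine transporter Slc7a11 (−0.23 ± 0.01) and sulfiredoxin (Srxn1, −0.24 ± 0.02) were called lower as well.

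The 3 members called higher were not glutathione transferases: Gpx1 (27688 and 22581 reads, 0.10 ± 0.01), Prdx2 (0.10 ± 0.02) and Gpx4 (0.06 ± 0.02). Genes of enzymes that supply NADPH, G6pdx (−0.25 ± 0.03), Pgd (at least 15444 and 17127 reads, −0.34 ± 0.02) and Me1 (365 and 425 reads, −0.41 ± 0.10) were called lower. Under stimulation 18 of the 57 were called lower and 4 higher (median −0.07), Nqo1 at −0.60, Prdx1 at −0.42 and Gclm at −0.05 (not called). Glutathione transferases of the Gstm and Gsta groups have near-identical copies, so reads of single members are less certain.

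The promoters of 3 of these genes are shown with their match to the core of the antioxidant response element, the site known for NRF2, in capitals. The letters searched were TGACNNNGC on either strand. Prdx1 is chr4:116685349-116685598, plus strand, Gclm chr3:122245307-122245556, plus strand and Gsta3 chr1:21240335-21240584, plus strand (GRCm38.p6, RefSeq, 250 bases before the start, 5′ to 3′).
Prdx1: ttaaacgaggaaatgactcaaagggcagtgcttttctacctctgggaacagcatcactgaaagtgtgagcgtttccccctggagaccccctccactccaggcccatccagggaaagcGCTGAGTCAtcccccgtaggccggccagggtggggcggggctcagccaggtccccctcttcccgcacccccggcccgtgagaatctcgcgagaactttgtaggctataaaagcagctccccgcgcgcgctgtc
Gclm: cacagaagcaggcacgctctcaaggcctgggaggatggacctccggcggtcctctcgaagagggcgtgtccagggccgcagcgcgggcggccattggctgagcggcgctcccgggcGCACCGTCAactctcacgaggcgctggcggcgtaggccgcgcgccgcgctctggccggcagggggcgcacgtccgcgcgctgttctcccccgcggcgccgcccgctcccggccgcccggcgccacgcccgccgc
Gsta3: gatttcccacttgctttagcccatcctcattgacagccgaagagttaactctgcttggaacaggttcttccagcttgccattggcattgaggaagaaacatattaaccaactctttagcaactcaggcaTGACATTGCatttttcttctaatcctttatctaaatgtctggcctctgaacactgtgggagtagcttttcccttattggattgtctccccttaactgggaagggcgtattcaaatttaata
The matches start at positions −133, −134 and −121. Those in Prdx1 and Gclm lie on the other strand, and that in Prdx1 also holds the AP-1 letters TGANTCA. Of the 21 genes called lower, 17 had a promoter, and 6 of these held a match (35.3%, also G6pdx, Nfe2l2 and Txnrd1), against 13.9% over all genes. In the same 17 genes the NF-kB site occurred in 23.5% against 10.6% and the AP-1 letters in 11.8% against 6.11%. Known elements of this kind can lie further from the start than this window. Genes of this list were chosen for their known biology, and NRF2 targets are among them whatever their ratio. Members not called lower were not searched as a set, so the shares do not bear on the calls. The starts used for Gclm and Gsta3 lie inside the spans listed for those genes.

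Iron and heme genes had 9 of 43 called lower and 3 higher, against 4.27% and 4.7% over all genes. Slc40a1, the iron exporter ferroportin, had 176 and 393 reads (−1.35 ± 0.13), and Spic, a transcription factor of macrophages that recycle heme, 18 and 53 (−1.75 ± 0.39). The mitochondrial iron importer Slc25a37 was at −0.45 ± 0.05. Under stimulation Slc40a1 was at −0.42 with 669 and 915 reads. The ferritin heavy chain gene Fth1, the gene with the most reads of the table, was called at 101.7% of the WT level. Genes of prostaglandin and leukotriene signalling had 8 of 33 called lower and 2 higher. Fpr1 and Fpr2, receptors for bacterial formyl peptides kept in that list, had 1029 and 1493 reads (−0.73 ± 0.06) and 1145 and 1432 (−0.51 ± 0.06), and Ptgs2, the inducible cyclooxygenase, at least 6230 and 7823 (−0.52 ± 0.02). The leukotriene genes Alox5 (3009 and 1983 reads, 0.41 ± 0.04) and Ltb4r1 (815 and 533, 0.42 ± 0.08) were higher.

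Further lists of stress and energy genes had more calls downwards than upwards, against 4.27% lower and 4.7% higher over all genes. Of 27 genes linked to hypoxia, 7 were called lower and 2 higher (4 and 5 with ratios as deposited), with Ero1l at −0.37 ± 0.02, Ddit4 at −0.23 ± 0.03 and Hif1a itself higher at 0.14 ± 0.02. Under stimulation 18 of the 27 were called lower. Heat shock genes had 7 of 23 lower and 1 higher (4 and 4 as deposited), with the small chaperone gene Cryab at 29 and 70 reads (−1.46 ± 0.32), Dnajb4 at −0.32 ± 0.07 and Hspa1b, which has a near-identical neighbour, at −0.31 ± 0.06. Glycolysis had 6 of 30 lower and 3 higher (1 and 8 as deposited), between −0.21 ± 0.03 (Slc2a6, a sugar transporter) and 0.21 ± 0.03 (Gapdh). Fatty acid synthesis genes did not lean downwards, with 2 of 21 called higher and 2 lower and a median of 0.10. Single lipid genes called lower were Acsl1, which activates fatty acids (at least 9705 and 12298 reads, −0.53 ± 0.02), and Dgat2, which makes triglycerides (334 and 477 reads, −0.71 ± 0.10).

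**Figure D3:**
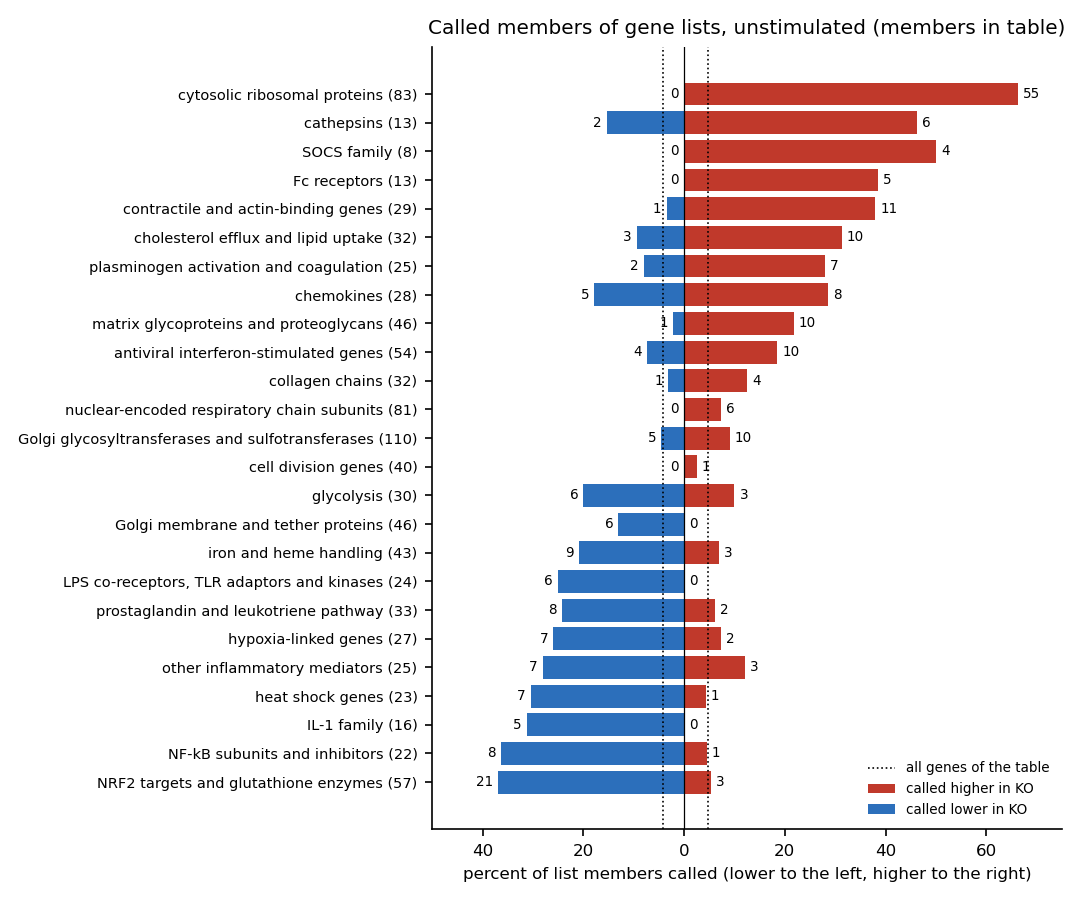
Percent of the members of 25 gene lists called lower (blue, left) and higher (red, right), with the number of called members beside each bar and the number of members in the table in brackets; dotted lines mark 4.27% lower and 4.7% higher over all genes. The lists shown are a choice out of 84 and not all of those described in the text. Ribosomal proteins (55 of 83 higher) and NRF2 targets (21 of 57 lower) are at the ends.

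Several receptor and signalling groups had calls upwards alone. Of all genes 4.7% were called higher, and the share called rose with the number of reads. Fc receptors, which bind antibodies, had 5 of 13 called higher and none lower. Fcgr1 had 2701 reads in KO and 1498 in WT (0.66 ± 0.05) and Fcgr4 1268 and 757 (0.55 ± 0.07). SOCS genes, feedback inhibitors of cytokine receptors, had 4 of 8 called higher and none lower, namely Socs3 (at least 12006 and 7738 reads, 0.44 ± 0.02), Cish (at least 21396 and 14654, 0.35 ± 0.02), Socs2 (0.30 ± 0.02) and Socs1 (0.17 ± 0.02). Under stimulation the same 4 genes were called higher, at 0.31, 0.35, 0.38 and 0.11. MS4A membrane proteins had 3 of 8 called higher, with Ms4a4c at 1624 and 892 reads (0.67 ± 0.06) and Ms4a6d at 10286 and 6597 (0.45 ± 0.02).

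The complement list had 6 of 30 called higher and 2 lower, against 4.7% and 4.27% over all genes. C1qb had 290 and 127 reads (1.0 ± 0.15) and its neighbour C1qc 278 and 146 (0.74 ± 0.15), while C3 was lower (at least 17427 and 19722, −0.37 ± 0.01). Interferon regulatory factors had 3 of 9 called higher, among them Irf8 (17902 and 12603 reads, 0.32 ± 0.02), a factor needed for dendritic cell development, and Irf5 (0.27 ± 0.01). Costimulatory molecules had 4 of 24 higher and 2 lower, with Pdcd1lg2 at 0.38 ± 0.02 and Icosl at −0.45 ± 0.11. Class II MHC genes differed little, H2-Ab1 at 0.09 ± 0.01 and Cd74 at 0.04 ± 0.01.

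Of 13 cathepsins, the proteases of the lysosome, 6 were called higher, 2 lower and 5 not called, with a median of 0.07. Among genes with a mean over 5000 reads, 44.5% were called in either direction. Ctsl led the cathepsins with at least 14106 and 9328 reads (0.41 ± 0.02), and Ctsc, which activates granule proteases, was lower at −0.34 ± 0.02. Acp5, a phosphatase used as an osteoclast marker, had at least 17013 and 10991 reads (0.44 ± 0.02), and Ocstamp, a gene of cell fusion in osteoclasts, 639 and 317 (0.82 ± 0.10). Genes of cholesterol efflux and lipid uptake had 10 of 32 called higher and 3 lower, with Ch25h, which makes an oxysterol, at 414 and 227 reads (0.68 ± 0.12), Apoe at 914 and 652 (0.30 ± 0.07) and the efflux pump gene Abca1 lower at −0.24 ± 0.02. Amino acid enzymes of myeloid cells split: Kmo of the kynurenine pathway (461 and 216 reads, 0.90 ± 0.12), Bcat1 (260 and 115, 0.99 ± 0.16) and Arg1 (at least 7835 and 4659, 0.56 ± 0.03) were higher. Arg2 (−0.47 ± 0.10), Gch1 (−0.49 ± 0.05) and Nos2 (at least 27700 and 29054, −0.26 ± 0.01) were lower. Growth factor genes included Pgf (at least 6878 and 3721 reads, 0.70 ± 0.03), its receptor gene Flt1 (541 and 271, 0.81 ± 0.11) and Vegfa (−0.18 ± 0.01), a further ligand of that receptor.

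Ribosomal proteins held more called genes than any other of the 84 lists. Over all genes 4.7% were called higher, and of 1376 genes with a mean over 5000 reads 349 were called higher and 263 lower. Of 83 genes of the cytosolic ribosome, 55 were called higher and none lower, with a list median of 0.11. The members with the highest ratios were Rplp2 (666 and 426 reads, 0.45 ± 0.09), Rpl14 (1099 and 758, 0.34 ± 0.07) and Rps14 (18582 and 13227, 0.30 ± 0.02). Many ribosomal genes have processed copies elsewhere in the genome, which makes the reads of single members uncertain. Under stimulation 69 were called higher and none lower, with a median of 0.15. Nuclear-encoded respiratory chain subunits had 6 of 81 called higher and none lower (median 0.05), and mitochondrial ribosomal proteins 1 of 77 (median 0.05). All 3 groups consist of genes with short transcripts, and the ratio moved with transcript length over all genes. Among genes with the precision of 50 reads per library, of which 6.38% were called higher and 5.8% lower, the fifth with the shortest exon length had a median of 0.04 with 219 called higher and 101 lower, and the fifth with the longest a median of −0.03 with 94 and 158. The part of transcript length in the ribosomal result was not tested.

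**Figure D4:**
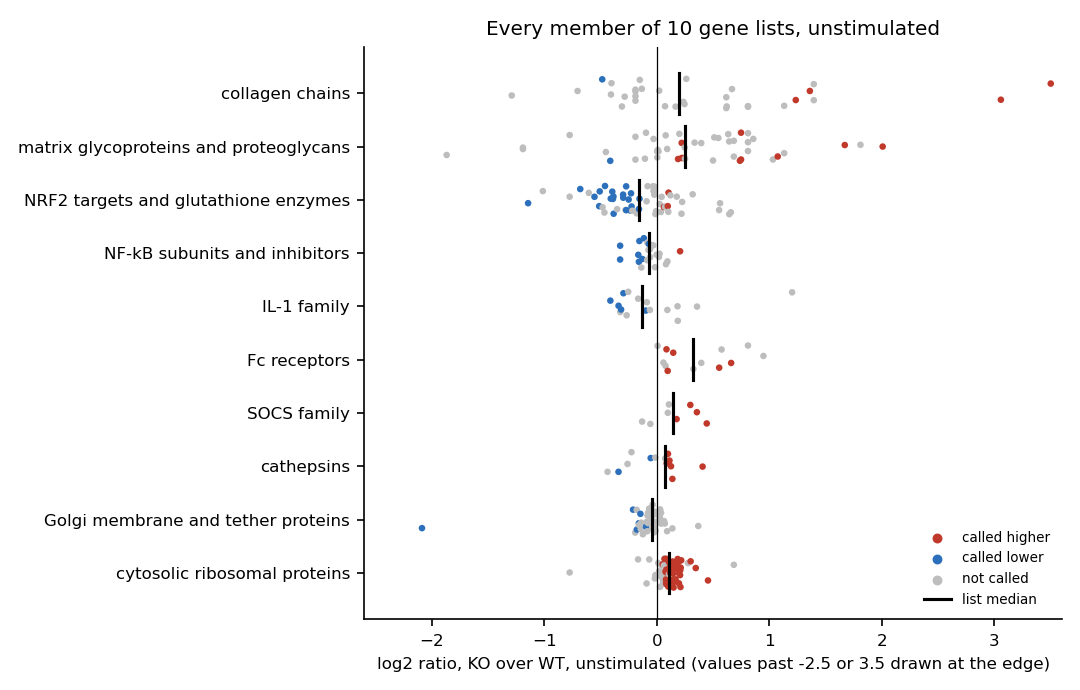
Each point is 1 listed gene, placed by its centred log2 ratio in the unstimulated pair and coloured by its call; black bars are list medians. Ribosomal proteins form a narrow group around 0.11, NRF2 targets spread below 0, and collagen and matrix genes spread widely with called members up to 4.20 (Col8a1, drawn at the edge).

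Interferon-stimulated genes differed between the 2 states of the series. Over all genes 4.7% were called higher and 4.27% lower without stimulus, and 5.36% and 6.54% with it. In unstimulated cells 10 of 54 antiviral genes were called higher and 4 lower, with a median of 0.04; in the stimulated pair 1 was called higher and 43 lower, with a median of −0.44. Isg15, a ubiquitin-like antiviral protein, had 1928 and 1468 reads without stimulus (0.20 ± 0.05) and 9470 and 13657 with it (−0.49). Ifit2 was at 0.33 ± 0.07 and −1.17, and Mx1 at 0.32 ± 0.05 and −0.64. Iigp1, an interferon-induced GTPase gene, was at 0.49 ± 0.11 and −0.52. Among these genes Ifit1 was not called without stimulus (1327 and 1221 reads, −0.07 ± 0.06). Each state has 1 library a genotype, so the difference between states has no test.

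Cell division and DNA replication genes had 1 of 40 members called higher in each list and none lower, with Mki67 at 916 and 767 reads (0.06 ± 0.07) and Top2a at 580 and 531 (−0.06 ± 0.09). Myc, which drives growth genes, had 331 and 172 reads and was called higher (0.75 ± 0.14). Among 275 solute carriers 12 were called higher and 20 lower, with Slc15a2, a peptide transporter, at 255 and 130 reads (0.78 ± 0.16) and the betaine transporter Slc6a12 at 3732 and 4969 (−0.60 ± 0.03). The zinc finger genes named Zfp had 6 of 334 called higher and 3 lower, against 4.7% and 4.27% over all genes. By chromosome, the share of genes called ran from 5.59% on X to 11.8% on chromosome 12, and median ratios from −0.03 to 0.02.

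Of the 60 named genes called higher at 1.5-fold or more, 58 had a ratio above 0 in the stimulated pair, 34 were called higher there and 1 (Slfn1) lower. Of the 44 called lower, 43 had a ratio below 0, 28 were called lower and 1 (Lars2) higher. The 2 pairs are separate libraries, but the labels do not say whether they come from the same mice or cultures. Some ratios were larger under stimulation: Col3a1 had 226 reads in KO and 3 in WT there, and Col1a2 246 and 37. Cyr61 (39 and 23 reads) and Ctgf (56 and 45) were not called there. Slfn1, a Schlafen family gene, had 2110 and 1216 reads without stimulus (0.60 ± 0.05) and 3043 and 3476 with it (−0.16).

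**Figure D5:**
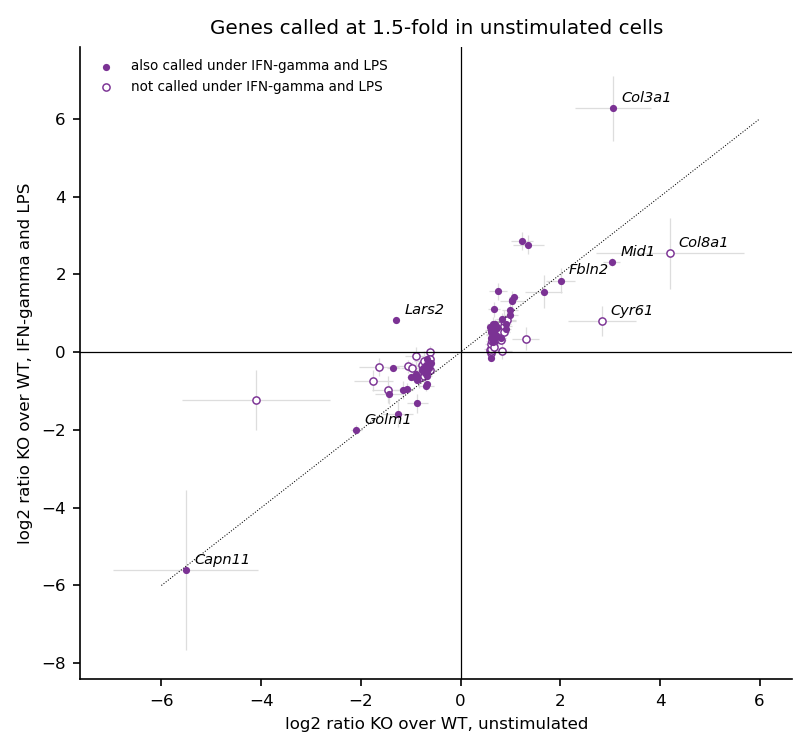
Centred log2 ratios of KO over WT in unstimulated (x) and stimulated (y) cells for the named genes called at 1.5-fold or more in unstimulated cells, with counting standard errors; filled points are also called in the stimulated pair and the dotted line marks equal ratios. Most points lie in the same quadrant in both states, Lars2 and, near the x axis, Slfn1 lie in an opposite one, and Capn11 under stimulation rests on 0 KO reads, which the authors' ratio treats as 0.5.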

How the data were processed

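mRNA of 4 groups with 1 library each was sequenced (strand-specific TruSeq, per the labels' protocols); FastQC 0.10.1, HTSeq 0.6.0 and mm10 are named in the submitters' processing notes. Aligner, annotation, scaling and the kind of test: not given in the sources used here. A log2 fold change per gene and, per the file headers and the values, a −log10 p-value with a ceiling of 100 were deposited by the authors. From the values, the deposited log2 ratio is that of unscaled reads (0 reads stand as 0.5), and the p-value is a normal test around 0.191 with an error set by the reads alone. Each ratio was reduced by 0.191, and reads were solved from both values. Of 7312 genes under 500 reads, 99.0% came out whole in both libraries (tolerance 0.05). For 51 genes at the ceiling, reads are lower bounds (written "at least") and their error an upper limit.

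Calls used the deposited p-values, Benjamini-Hochberg adjusted over 15394 genes, under 0.001. Direction was read from the centred ratio. The planned design assumed these units. The procedure was tested on simulated data. Named genes are Golm1, the 25 highest and 25 lowest ratios called at 1.5-fold, the most extreme called members of each of 84 lists, and called genes within 5 Mb of Golm1. Genes named outside this rule, uncalled ones included, are pathway members or neighbours chosen after their values were seen. Genes and lists were chosen with earlier results of these data known. Lists are described by counts and medians, with no set test. Positions and promoters came from RefSeq (GRCm38.p6, the patched release of the build named mm10), with 99.4% of genes matched to a position. Exon lengths came from GENCODE and were found for 15230 genes. Errors and intervals cover counting only. Alternatives were ratios as deposited, ratios centred on the median gene, a threshold of 0.05, genes with the precision of 50 reads in each library and, added after seeing the data, an exact binomial test on the recovered reads. Python 3.11.15, pandas 2.3.3, NumPy 2.4.6, SciPy 1.17.1 and matplotlib 3.10.9 were used.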

Additional observations from a re-analysis of the deposited data

Results flagged for a closer look

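Lars2, the mitochondrial leucyl-tRNA synthetase gene, was called at over 1.5-fold in both states in opposite directions. It had at least 763 reads in the KO and 1643 in the WT library without stimulus, a log2 ratio of −1.30, and at least 11704 and 6749 reads under IFN-gamma and LPS, a ratio of 0.83. With 1 library a group the difference between the states was not tested. Of the other aminoacyl-tRNA synthetases, Wars was called higher (0.16) and Iars2 lower (−0.17) without stimulus, and 38 of 41 listed genes were not called.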

How the results depend on the processing

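No paired analysis was possible because each group has 1 library, whose replicate number only names it, and no library could be left out. With an adjusted p under 0.05, 1441 genes were higher and 1308 lower, 178 and 101 at 1.5-fold or more and 76 and 43 at 2-fold or more. Read as deposited, without removing the depth difference, 1010 genes were higher and 369 lower, 140 were higher and 22 lower at 1.5-fold or more, and 25 were higher at 2-fold or more. That reading moves all ratios up by 0.19 and turned the sign of 8 of 184 named genes checked. Acbd3 went to 0.044, Cxcl3 to 0.064, Golga4 to 0.093 and Golph3 to 0.012. Golph3l went to 0.0300, Iars2 to 0.026, Nfkb2 to 0.12 and Vegfa to 0.014. Golm1 kept its direction and its call under each alternative run. Restricting to genes with the precision of 50 reads left 7 genes past 2-fold in each direction, by dropping genes of few reads. Centring on the median gene changed no count by over 1.5 times and no call of a named gene. The exact binomial test, added after seeing the data, called 717 genes higher and 650 lower, 1367 of them shared with the main calls, and lost Golga4 (adjusted p = 0.00104) and Nxpe4 (adjusted p = 0.00151) among the named genes. Within 10 Mb of Golm1, 11 of 149 genes (7.38%) were called, against 4 of 80 within 5 Mb. Precision is limited by reads: the median counting error was 0.088, and 72.9% of genes reached the precision of 50 reads.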
